A study of Mus musculus with 40 samples.

Results

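The interferon-induced Ifit genes Ifit1, Ifit2, Ifit3, Ifit3b, Ifit1bl1 and Ifit1bl2 and the interferon-induced gene Ifi44 were followed in the mouse colon after colonisation with Tritrichomonas musculis (T.mu), a protozoan that lives in the gut lumen. The 7 genes were chosen by symbol, and each was found once among the 45792 mouse gene IDs of the count table. Transcript ends were counted in 40 libraries from 2 preparations of the colon, epithelial cells and total tissue, taken 3, 14 and 48 days after mice received 2000000 sorted T.mu or no inoculum. Each of the 12 groups of preparation, day and inoculum had 3 libraries at days 3 and 14 and 4 at day 48. T.mu mice carried the sorted protozoan as their only named treatment, and control mice are labelled as having no inoculum. Strain, age, sex and housing are not given in the sources used here. Libraries are labelled by litter. The design text speaks of 3 mice per group, fewer than the 4 libraries at day 48, so p-values measure the spread between these libraries.

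Ifit proteins are built from tetratricopeptide repeats and belong to the antiviral program that type I and type III interferons switch on. Those interferons bind receptors that activate the kinases Jak1 and Tyk2, and the transcription factor complex ISGF3 then binds a DNA element called the interferon-stimulated response element in the promoters of target genes. In the intestine, epithelial cells answer type III interferon strongly, while cells of the lamina propria answer type I interferon.

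In the GENCODE M21 annotation of GRCm38, 6 of the 7 genes form a cluster on chromosome 19 between 34550694 and 34650009, and Ifi44 lies alone at chr3:151730922-151749960 on the minus strand. Along the cluster the order is Ifit2 (chr19:34550694-34576419), Ifit3 (chr19:34583531-34588731), Ifit1bl1 (chr19:34592891-34601956), Ifit3b (chr19:34607970-34613401), Ifit1bl2 (chr19:34617049-34640743) and Ifit1 (chr19:34640871-34650009). Ifit1bl1 and Ifit1bl2 lie on the minus strand and the other 4 on the plus strand, so Ifit1bl2 and Ifit1 point away from each other with 127 bases between their annotated starts. The build and annotation behind the counts are not given in the sources used here, and the positions are those of the reference.

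The sequences upstream of Ifit1, Ifit1bl2, Ifit3, Ifit3b and Ifit1bl1 are shown because all 5 genes were called higher with T.mu in total tissue over all days and their windows hold a match to the same response element core. RefSeq promoter windows of GRCm38.p6, covering 250 bases before to 50 after each start, were found for all 7 genes, as 10 windows. They were searched on both strands for GAAANNGAAA, the core of the interferon-stimulated response element, where N is any base. A match was present in 6 of the 10 windows, which belong to 5 of the 7 genes, against 3.44% of 32851 mouse windows. At least 2 matches were present in 4 of them (Ifit1, Ifit3, Ifit3b and the first start of Ifit1bl2), against 0.225% of all windows. The first line is the stretch between the GENCODE starts of Ifit1bl2 and Ifit1 (chr19:34640744-34640870, plus strand). The others are the 250 bases before the RefSeq starts of Ifit3 (chr19:34583279-34583528, plus strand), Ifit3b (chr19:34607707-34607956, plus strand) and Ifit1bl1 (chr19:34601969-34602218, minus strand). All are written 5′ to 3′, with each match in capitals.
Between Ifit1bl2 and Ifit1: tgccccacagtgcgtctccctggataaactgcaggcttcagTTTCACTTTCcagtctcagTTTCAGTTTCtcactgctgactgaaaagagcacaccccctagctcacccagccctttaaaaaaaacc
Before Ifit3: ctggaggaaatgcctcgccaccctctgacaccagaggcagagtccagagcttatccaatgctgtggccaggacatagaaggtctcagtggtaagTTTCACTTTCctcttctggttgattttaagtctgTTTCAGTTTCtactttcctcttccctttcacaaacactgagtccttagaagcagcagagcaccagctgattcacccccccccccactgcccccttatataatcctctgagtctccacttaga
Before Ifit3b: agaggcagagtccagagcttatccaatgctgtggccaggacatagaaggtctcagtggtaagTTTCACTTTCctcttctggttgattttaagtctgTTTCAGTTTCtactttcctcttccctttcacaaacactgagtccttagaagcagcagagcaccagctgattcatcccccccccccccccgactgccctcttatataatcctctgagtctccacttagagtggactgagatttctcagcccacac
Before Ifit1bl1: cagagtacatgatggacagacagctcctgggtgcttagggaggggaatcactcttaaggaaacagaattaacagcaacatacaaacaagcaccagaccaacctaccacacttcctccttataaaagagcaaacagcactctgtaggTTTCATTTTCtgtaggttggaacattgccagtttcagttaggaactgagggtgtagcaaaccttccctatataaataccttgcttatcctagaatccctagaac
The matches read as the opposite strand of the searched letters on all 4 lines. The matches before Ifit1 start 104 and 85 bases upstream of its RefSeq start, which lies downstream of the GENCODE start that ends the printed line. The same 2 matches, read from the other strand, start 70 and 51 bases upstream of the first RefSeq start of Ifit1bl2. Ifit3 and Ifit3b look like copies of each other here: their windows align over 274 bases with 259 identical (94.5%), and the pair of matches is present in both. Ifit1bl1 has 1 match before each of its 2 annotated starts, 104 and 23 bases upstream, and its 2 windows align over 179 bases with 173 identical. The windows with a match are thus not separate observations beside the shares over all mouse windows. No match to these letters was present in the windows of Ifit2 or Ifi44. The gamma-activated site TTCNNNGAA, present in 8.30% of all windows, was found only before the first start of Ifit2, 241 bases upstream. A match describes letters and does not show a site in use.

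**Figure D1:**
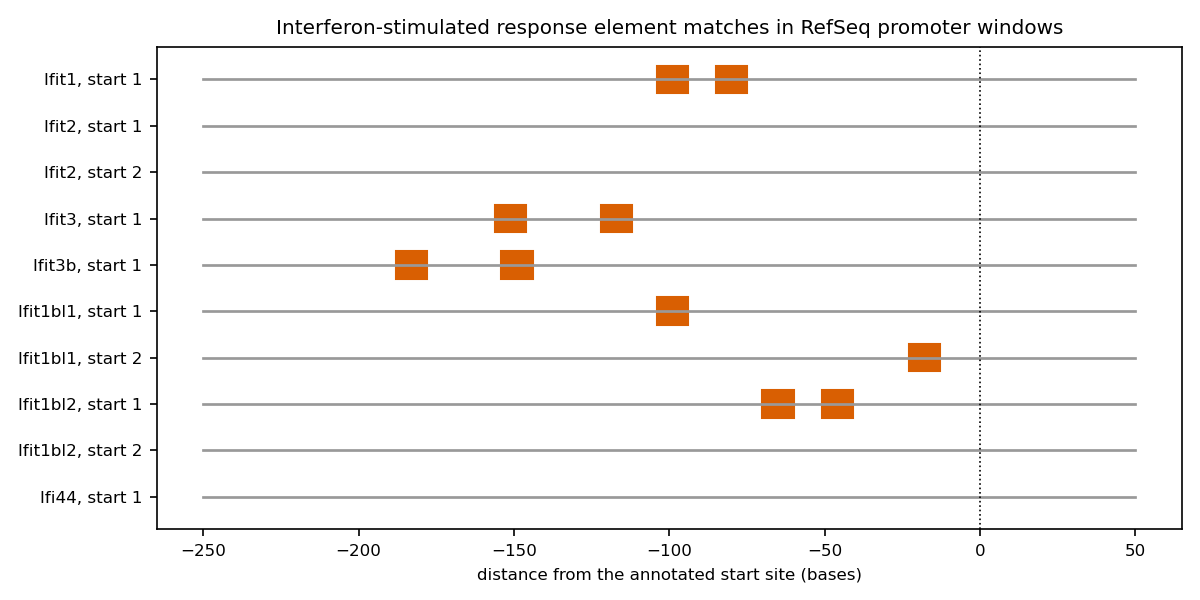
Positions of matches to the interferon-stimulated response element core in 10 RefSeq promoter windows, from 250 bases before to 50 after each annotated start (dotted line at 0). Each orange box is 1 match of 10 bases; Ifit1, Ifit3, Ifit3b and the first start of Ifit1bl2 carry 2 each, and Ifit2 and Ifi44 carry none.

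Mouse counts per library ranged from 170291 to 2866306 in epithelium and from 220717 to 6756616 in total tissue, with 3 and 4 libraries under 400000. The shallow libraries were uneven between arms: the group median in epithelium at day 3 was 327125 counts in controls against 842506 with T.mu. Total tissue medians were 351445 in controls against 2093251 with T.mu at day 14, and 3323897.5 against 504696 at day 48. The table's single non-mouse entry, a check of the labels, was at 5.11 to 969 CPM (counts scaled to a fixed library total) in control and 1425 to 42755 in T.mu total tissue. In epithelium it was at 21.8 to 71.5 and 45.2 to 2073, where the arms overlap with the days pooled. Within each day every T.mu library of epithelium was above every control, with the closest pair at day 48 (43.4 and 45.2 CPM). Summed epithelial markers, all 10 of them detected, were at 5562 to 10984 CPM in the epithelial libraries and higher, at 10911 to 17041 CPM, in total tissue. Smooth muscle markers were at 25.2 to 72.0 CPM in the epithelial libraries against 2501 to 5614 in total tissue. Of the 246 values above 0 among the 7 genes, 180 (73.2%) are even numbers, so counting errors are larger than the counts imply. In total tissue at day 48 the control and T.mu libraries carry different second index sequences, and index and inoculum cannot be told apart there. Tests that include that comparison, such as the mean over days, share this limit. The second index also changes with day in both preparations. It differs between the preparations at day 14, and in the T.mu libraries at day 48. Levels compared between those groups cannot be told apart from index either.

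Ifit1, whose protein binds the 5′ ends of foreign RNA and blocks their translation, was higher with T.mu in both preparations. In epithelium at day 3 it stood at 0, 21.0 and 0 CPM in the 3 control libraries and at 53.1, 88.3 and 58.5 CPM in the 3 T.mu libraries. At day 14 the control libraries were at 4.83, 11.4 and 8.69 CPM and the T.mu libraries at 50.7, 44.6 and 53.9 CPM. At day 48 the values were 10.7, 15.9, 7.21 and 20.9 CPM in controls and 35.5, 76.7, 40.6 and 83.3 CPM with T.mu. On every day each T.mu library was above each control library. The fitted difference, T.mu minus control on the log2 scale, was 2.64 ± 0.56 (SE) at day 3 (6.24-fold), 2.53 ± 0.47 at day 14 (5.79-fold) and 2.12 ± 0.37 at day 48 (4.34-fold). Ifit1 passed edgeR's quasi-likelihood test with Benjamini-Hochberg adjustment over all 10119 genes on each day, with adjusted p = 0.00807, 0.0012 and 0.000496. The day 3 call rests on few control counts. It was lost without control replicate 1 or 3 (adjusted p up to 0.101, edgeR), and without control replicate 2 the remaining controls held no Ifit1 count. It was not made without the libraries under 400000 counts either, where control replicate 2 alone remained (log2 difference 1.46).

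In total tissue Ifit1 was at 83.5, 59.1 and 95.4 CPM in controls and 281, 854 and 297 CPM with T.mu at day 3. The day 14 values were 46.4, 33.6 and 120.0 CPM in controls against 654, 475 and 382 CPM with T.mu. At day 48 controls were at 106, 92.8, 47.2 and 54.8 CPM and T.mu libraries at 607, 169, 773 and 425 CPM. The arms did not overlap on any day, and the T.mu libraries differed among themselves by several-fold at days 3 and 48. Fitted differences were 2.59 ± 0.59, 2.70 ± 0.63 and 2.73 ± 0.52 on the log2 scale at days 3, 14 and 48. By edgeR's quasi-likelihood test the adjusted p was 0.0992, 0.0688 and 0.0144, so that day 48 alone passed, and that call was lost without control replicate 3 (adjusted p = 0.0618) or without the libraries under 400000 counts (adjusted p = 0.114). DESeq2 gave an adjusted p of 0.000271 at day 3 and 0.000141 at day 14. Averaged over the days the difference was 2.68 ± 0.34 in total tissue (6.39-fold, edgeR adjusted p = 0.000204) and 2.43 ± 0.27 in epithelium (5.39-fold, edgeR adjusted p = 1.37e-09).

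**Figure D2:**
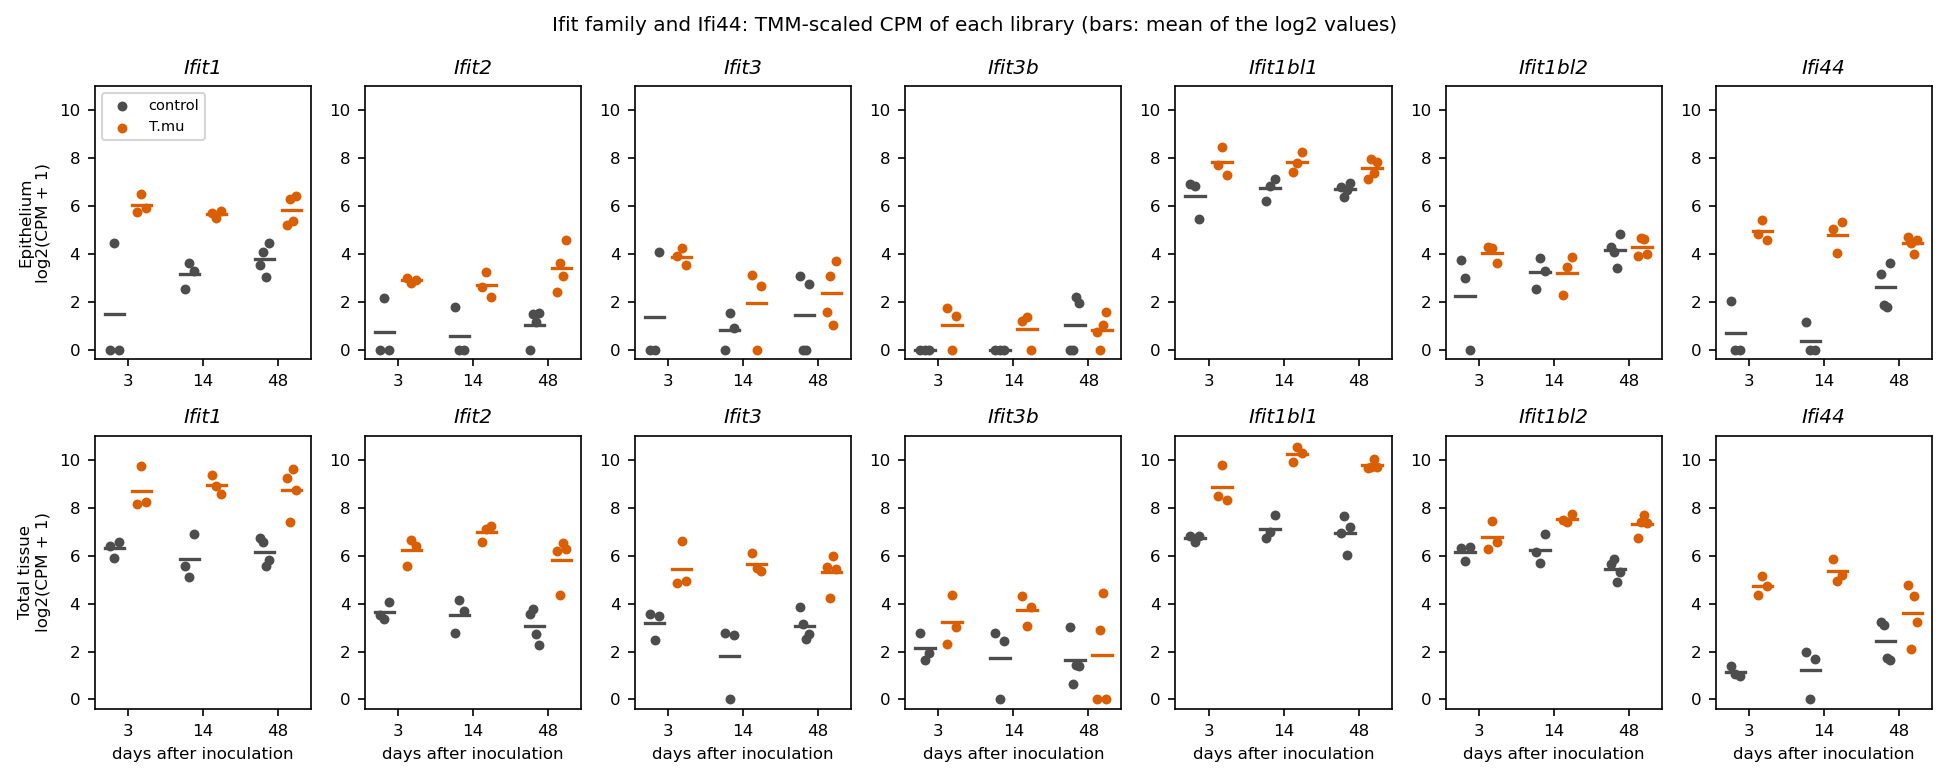
TMM-scaled CPM of the 7 genes in each library, as log2(CPM + 1), against days after inoculation, for epithelium (upper row) and total tissue (lower row); 1 point per library, with a bar at the mean of the log2 values of each group of 3 or 4. In total tissue at day 14 all 7 genes have every T.mu library above every control library, and in epithelium Ifit3b stays near 0 in both arms.

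Ifi44, an interferon-induced gene outside the Ifit cluster, had the highest fitted ratio of the tested members in epithelium over all days. Control libraries held 1, 0 and 0 Ifi44 counts at day 3 and 1, 0 and 0 at day 14. T.mu libraries held 24, 14 and 28 counts at day 3 (27.7, 41.2 and 22.7 CPM) and 50, 20 and 44 at day 14 (31.7, 15.4 and 39.5 CPM). With so few control counts the ratio of summed CPM is loose: 29.2 at day 3 (95% counting interval 5.06 to 1170) and 86.5 at day 14 (15.2 to 3447). These intervals treat each count as separate and are too narrow where counts are mostly even. Control replicate 1 held the single count on both days, and without it the controls are at 0. At day 48 the control libraries were at 8.01, 2.66, 2.40 and 11.4 CPM and the T.mu libraries at 25.3, 20.6, 14.96 and 22.8 CPM. The arms did not overlap on any day in epithelium. Ifi44 passed edgeR's quasi-likelihood test at day 3 (adjusted p = 0.00835) and day 14 (adjusted p = 1.58e-05), and at day 48 gave a log2 difference of 1.80 ± 0.48 with an adjusted p of 0.111. The day 3 call was lost without control replicate 2 (adjusted p = 0.0824, edgeR). It was not made without the libraries under 400000 counts either, where control replicate 2 alone remained.

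In total tissue Ifi44 was at 1.63, 1.08 and 0.954 CPM in controls and 19.7, 34.3 and 25.4 CPM with T.mu at day 3. At day 14 it was at 2.90, 0 and 2.19 CPM in controls and 57.9, 29.8 and 35.7 CPM with T.mu. At day 48 controls were at 8.48, 7.61, 2.27 and 2.17 CPM and T.mu libraries at 26.1, 3.28, 19.2 and 8.49 CPM, where the arms overlap. At day 48, T.mu replicates 2 and 4 held 2 Ifi44 counts each. The log2 difference was 4.42 ± 0.56 at day 3 (edgeR adjusted p = 3.8e-07), 4.33 ± 0.72 at day 14 (edgeR adjusted p = 0.000107) and 1.59 ± 0.50 at day 48 (edgeR adjusted p = 0.0977). Day 48 has the lowest difference in both preparations, yet a test that the 3 daily differences are equal did not pass in epithelium (adjusted p = 0.841, edgeR) or in total tissue (adjusted p = 0.128, edgeR). With no filter on low counts that test passed in total tissue (edgeR adjusted p = 0.0178). Over all days Ifi44 was 18.5-fold higher in epithelium (log2 4.21 ± 0.47, edgeR adjusted p = 1.37e-09) and 10.9-fold higher in total tissue (log2 3.44 ± 0.35, edgeR adjusted p = 5.32e-11).

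Ifit1bl1, a paralogue of Ifit1, was higher with T.mu in both preparations, by less in epithelium than in total tissue. In epithelium at day 3 it was at 119, 112 and 42.5 CPM in controls and 210.1, 347 and 156 CPM with T.mu. At day 14 controls were at 72.5, 114 and 139 CPM and T.mu libraries at 167, 219 and 305 CPM. At day 48 controls were at 109, 80.6, 102 and 123 CPM and T.mu libraries at 139, 245, 164 and 223 CPM. The arms did not overlap on any day, with the closest pair at day 48 (123 and 139 CPM). Log2 differences were 1.27 ± 0.31, 1.07 ± 0.28 and 0.88 ± 0.24, with edgeR adjusted p of 0.0465, 0.0644 and 0.168. With litter as a block the day 14 difference passed as well (edgeR adjusted p = 0.0397), while the day 3 call was lost on leaving out any 1 of the 6 libraries except T.mu replicate 3 (adjusted p up to 0.2, edgeR). Over all days Ifit1bl1 was 2.11-fold higher (log2 1.08 ± 0.16, edgeR adjusted p = 6.37e-06).

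In total tissue Ifit1bl1 had control levels that overlap those of epithelium, and higher T.mu levels. Day 3 controls were at 114, 93.0 and 113 CPM and T.mu libraries at 356, 869 and 316 CPM. Day 14 controls were at 104, 126 and 205.5 CPM against 954, 1480.4 and 1248 CPM with T.mu. Day 48 controls were at 123, 198, 63.8 and 145 CPM against 806, 830.4, 1032 and 837 CPM. Each T.mu library was above each control on every day. Log2 differences were 2.28 ± 0.42, 3.01 ± 0.45 and 2.73 ± 0.37, and by edgeR's quasi-likelihood test the adjusted p was 0.0189, 0.00278 and 0.000984. The day 3 call was lost with litter as a block (edgeR adjusted p = 0.0566) and on leaving out any 1 control library. Over all days Ifit1bl1 was 6.37-fold higher in total tissue (log2 2.67 ± 0.24, edgeR adjusted p = 4.58e-06).

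The response of Ifit1bl1 in epithelium was lower than in total tissue by a test of the difference itself. In the fit over all 40 libraries the interaction, the mean log2 response in epithelium minus that in total tissue, was -1.57 ± 0.30 (edgeR adjusted p = 0.00857), and 0.144% of 11834 genes were called lower in that contrast. RLE scaling moved the median of all genes in this contrast by -0.10 and the split of all calls from 72 higher and 17 lower to 38 and 34, and Ifit1bl1 was called under it too. The call held in all 40 refits that left out 1 library. Without the libraries under 400000 counts, where some groups kept 1 control library, the value was -1.60 and was not called. None of the other 6 genes passed, and their values do not show that their responses were alike: Ifit1bl2 had -0.84 ± 0.35 (edgeR adjusted p = 0.239), Ifit3 -1.23 ± 0.97, Ifit2 -0.39 ± 0.90, Ifit1 -0.24 ± 0.54, Ifi44 0.89 ± 0.77 and Ifit3b 0.89 ± 1.07. In the last 500 bases of the Ifit1bl1 transcript, 9.09% of the 50-base words also occur in Ifit1bl2, so a small part of its reads could be assigned to either gene.

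Ifit1bl2, the second Ifit1-like gene on the minus strand, rose in total tissue and was not called in epithelium. Its total tissue values at day 3 were 79.6, 54.6 and 80.9 CPM in controls and 76.9, 171 and 95.2 CPM with T.mu, which overlap. At day 14 they were 69.5, 50.4 and 117 CPM in controls and 179, 169 and 209.8 CPM with T.mu. At day 48 they were 49.5, 58.0, 29.3 and 38.5 CPM in controls and 105, 167, 208 and 166 CPM with T.mu. The arms did not overlap at days 14 and 48. Log2 differences were 0.69 ± 0.28, 1.09 ± 0.30 and 1.92 ± 0.26, and by edgeR's quasi-likelihood test the adjusted p was 0.765, 0.09 and 2.84e-05. A test that the daily differences are equal did not pass (adjusted p = 0.331, edgeR). Over all days Ifit1bl2 was 2.35-fold higher in total tissue (log2 1.23 ± 0.16, edgeR adjusted p = 2.85e-06). In epithelium it ranged from 0 to 27.5 CPM in controls and from 3.80 to 24.3 CPM with T.mu, with a mean log2 difference of 0.38 ± 0.34 (edgeR adjusted p = 0.602).

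Ifit2, which takes part in antiviral defence and can promote apoptosis, had its clearest change in total tissue. There it was at 10.4, 9.14 and 16.0 CPM in controls and 46.9, 99.8 and 84.8 CPM with T.mu at day 3. At day 14 controls were at 5.79, 16.8 and 12.1 CPM and T.mu libraries at 94.8, 136 and 152 CPM. At day 48 controls were at 10.7, 12.6, 5.68 and 3.80 CPM and T.mu libraries at 71.8, 19.7, 91.0 and 76.4 CPM. The arms were apart on every day, with T.mu replicate 2 at day 48 nearest to the controls. Log2 differences were 2.69 ± 0.41, 3.44 ± 0.54 and 3.03 ± 0.41, with edgeR adjusted p of 0.000541, 0.00071 and 0.000122. In epithelium Ifit2 held 0 to 2 counts per control library and 2 to 23 per T.mu library. Its arms did not overlap there on any day. It passed the filter on low counts (minimum count 10) through T.mu libraries alone, which favours a higher call in advance. No single day passed in epithelium (edgeR adjusted p of 0.641, 0.339 and 0.168), and the mean over days did (log2 2.62 ± 0.65, edgeR adjusted p = 0.0129). That mean was not called without the libraries under 400000 counts, where control replicate 2 alone remained at day 3. With no filter, 74 of the 79 tests of single members kept their result and 5 were stronger.

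Ifit3, an Ifit protein that pairs with other members, and Ifit3b, its close copy, are reported with an uncertainty: 14.9% of the 50-base words in the last 500 bases of the Ifit3 transcript also occur in Ifit3b. In total tissue Ifit3 was at 10.8, 4.57 and 10.3 CPM in controls and 28.2, 96.2 and 29.3 CPM with T.mu at day 3. At day 14 the values were 5.79, 0 and 5.48 CPM in controls and 68.7, 43.9 and 40.2 CPM with T.mu. At day 48 they were 13.4, 7.90, 4.69 and 5.70 CPM in controls and 45.7, 18.1, 63.1 and 42.5 CPM with T.mu. The arms were apart on every day. Log2 differences were 2.63 ± 0.47, 3.43 ± 0.68 and 2.54 ± 0.46, with edgeR adjusted p of 0.00209, 0.00626 and 0.00228. The day 14 call was lost without control replicate 1 or 3 (adjusted p up to 0.109, edgeR). In epithelium Ifit3 held 0 to 11 counts per control library and 0 to 13 per T.mu library, and its mean log2 difference of 1.57 ± 0.70 did not pass (edgeR adjusted p = 0.2).

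Ifit3b was near the detection limit. In total tissue it ranged from 0 to 7.14 CPM in controls and from 0 to 20.8 CPM with T.mu, and the arms were apart at day 14 alone. No day passed edgeR's quasi-likelihood test (adjusted p of 0.888, 0.573 and 0.179), and the mean over days did (log2 1.76 ± 0.45, 3.40-fold, adjusted p = 0.0218). That call was lost on leaving out any of 6 single libraries, namely T.mu replicate 2 or control replicate 2 at day 3, T.mu replicate 1 or control replicate 2 or 3 at day 14, and T.mu replicate 3 at day 48 (edgeR adjusted p up to 0.283). In epithelium Ifit3b held at most 6 counts in any library and was removed by the filter on low counts. An exact two-sided permutation test within days, the 1 such test made, gave a mean daily difference of 0.520 CPM with p = 0.281 over 28000 arrangements.

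Counting the members by day, edgeR called 3 of the 6 tested in epithelium at day 3 (Ifit1, Ifit1bl1, Ifi44), where 0.326% of all genes tested were called higher. At day 14 it called 2 (Ifit1, Ifi44; background 0.336%) and at day 48 it called Ifit1 (background 0.277%). In the mean over days 4 of 6 were called, all but Ifit3 and Ifit1bl2, against 2.46% of all genes. Of these 4, Ifit2 passed the filter on low counts through T.mu libraries alone, and Ifi44 mainly through them. In total tissue 4 of 7 were called at day 3 (Ifit2, Ifit3, Ifit1bl1, Ifi44; background 0.462%), the same 4 at day 14 (background 0.821%) and 5 at day 48 (Ifit1, Ifit2, Ifit3, Ifit1bl1, Ifit1bl2; background 1.00%). In the mean over days all 7 were called, against 1.50% of all genes. The median log2 difference of the tested members in that contrast was 2.00 in epithelium and 2.68 in total tissue, against 0.02 and -0.03 over all genes tested. None was called lower by edgeR in any T.mu comparison, where the share of all genes called lower was 0.0296%, 0.168% and 0.0198% in epithelium at days 3, 14 and 48 and 0.929% over all days. The same share in total tissue was 0.00855%, 0.145%, 0.804% and 0.410%. RLE scaling turned the split of all calls in total tissue from 96 higher and 17 lower to 87 and 37 at day 14, and from 117 and 94 to 170 and 89 at day 48. Without the libraries under 400000 counts fewer members were called in epithelium at day 3 and in total tissue at days 3, 14 and 48. That refit left control replicate 2 alone in epithelium at day 3 and control replicate 3 alone in total tissue at day 14. In total tissue at day 48 it left T.mu replicates 2 and 3, and at day 3 it removed no library. Its lost calls cannot be told from lost replication.

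**Figure D3:**
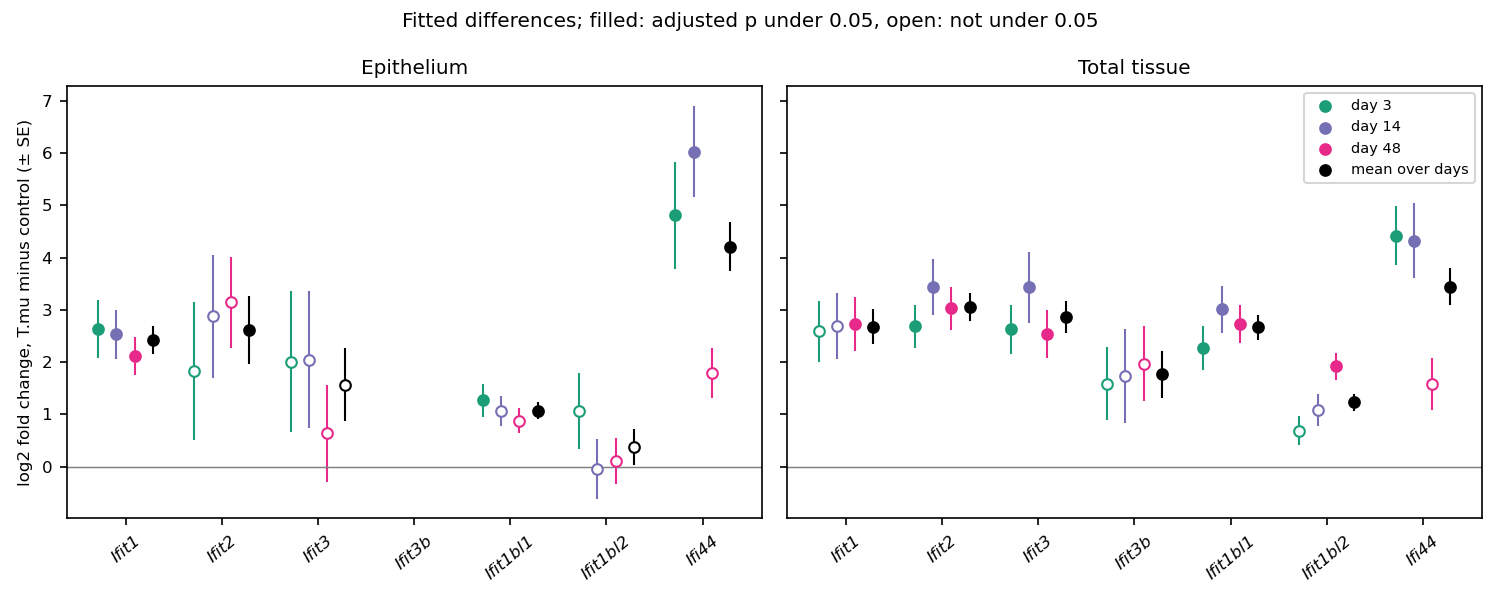
Fitted log2 fold change, T.mu minus control, of each gene in epithelium (left) and total tissue (right) for each day and for the mean over days, with bars of ± 1 SE. Filled points have an edgeR adjusted p under 0.05; Ifi44 has the highest mean over days in both preparations (4.21 and 3.44), and Ifit3b was not tested in epithelium.

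The arms did not overlap, with all T.mu values above all control values, for 4 of the 7 genes in epithelium on each day, namely Ifit1, Ifit2, Ifit1bl1 and Ifi44. The share of all tested genes with that separation was 7.60% at day 3, 9.76% at day 14 and 2.09% at day 48. In total tissue 5 genes were separated at day 3 (background 6.84%), 7 at day 14 (background 8.77%) and 5 at day 48 (background 2.71%). The genes that overlapped in total tissue were Ifit3b and Ifit1bl2 at day 3, then Ifit3b and Ifi44 at day 48. By edgeR's test of equal daily differences 0 members were called in epithelium (background 0.00%, 1 at an unadjusted p under 0.05) and 0 in total tissue (background 0.0684%, 2 at an unadjusted p under 0.05).

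Markers of other cell types were summed beside these results, and their part in the results was not tested. In epithelium the 11 markers of T and innate lymphoid cells, all detected in each arm, summed to 4.76 to 15.6 CPM in controls and 9.88 to 58.0 CPM with T.mu, and none had enough counts to be tested singly. The sums overlapped at day 3, at 8.77 to 15.6 and 11.8 to 25.4 CPM. They did not overlap at day 14, at 4.76 to 9.55 CPM in controls and 9.88 to 22.3 CPM with T.mu, nor at day 48, at 8.53 to 14.2 and 20.3 to 58.0 CPM. Macrophage and dendritic cell markers were at 5.34 to 18.95 and 4.67 to 22.8 CPM, and general leukocyte markers at 10.5 to 32.2 and 5.88 to 55.6 CPM. B and plasma cell markers were apart at day 48, at 19.4 to 24.6 CPM in controls and 29.0 to 55.3 CPM with T.mu. Red blood cell markers were at 10.6 to 59.6 CPM in controls and 88.3 to 283 CPM with T.mu at day 3, where Hbb-bs was called higher, and at 29.0 to 49.5 and 7.19 to 15.2 CPM at day 14. Among the epithelial markers, Krt20, Krt8 and Vil1 were called higher and Phgr1 lower in epithelium over all days. In total tissue the T and innate lymphoid sum was 0 to 45.0 CPM in controls and 8.93 to 61.2 CPM with T.mu, and the macrophage and dendritic cell sum 210 to 388 and 153 to 625 CPM. That macrophage and dendritic cell sum was apart at day 3, at 212 to 377 CPM in controls and 482 to 625 CPM with T.mu. The B and plasma cell sum was apart at day 14, at 436 to 600 and 607 to 817 CPM. Epithelial markers were higher with T.mu in epithelium at day 3 (6370 to 7178 against 7697 to 9890 CPM). The same held in total tissue at day 14 (11329 to 13620 against 14137 to 16845 CPM). Endothelial markers were higher in total tissue at day 3 (26.2 to 41.7 against 44.2 to 51.4 CPM). Smooth muscle markers were lower with T.mu in epithelium at day 14 (37.1 to 43.5 against 25.2 to 35.5 CPM). Red blood cell markers were lower in total tissue at day 14 (16.8 to 26.3 against 2.23 to 16.1 CPM). Among single genes tested, 6.84% to 9.76% had every T.mu library above every control at days 3 and 14. In total tissue over all days Jchain and Krt20 were called higher and Phgr1 lower among the markers. In bulk samples more cells of a type and more RNA per cell cannot be told apart.

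Control levels were compared between the preparations with all 40 libraries scaled together. In control epithelium Ifit1 was at 10.5 ± 7.73 CPM (SD, n = 10), Ifit2 at 1.12 ± 1.33, Ifit3b at 0.660 ± 1.42 and Ifit1bl2 at 12.2 ± 7.80 CPM. In control total tissue the same genes were at 70.7 ± 28.1, 9.86 ± 4.12, 3.08 ± 2.35 and 60.1 ± 24.2 CPM. Epithelium was called lower for these 4 of the 7 genes, where 29.7% of all genes tested were called lower and 23.1% higher. Log2 differences, epithelium minus total tissue, were -2.75 ± 0.39 for Ifit1 (edgeR adjusted p = 7e-07), -3.01 ± 0.49 for Ifit2 (edgeR adjusted p = 2.41e-07) and -2.49 ± 0.24 for Ifit1bl2 (edgeR adjusted p = 2.54e-15). Ifit3b had -3.95 ± 1.20 (edgeR adjusted p = 0.00383), yet it passed the filter on low counts in this fit only through total tissue. It held 9 counts in control epithelium, with 8 of the 10 libraries at 0, so the filter made that call likely in advance. RLE scaling moved the median of all genes in this contrast by 0.25 and turned the split of all calls from 2734 higher and 3515 lower to 3626 higher and 2667 lower. The number of members called stayed at 4 under that scaling.

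The other 3 genes did not pass in that comparison. Ifit1bl1 was at 105 ± 30.3 CPM (SD, n = 10) in control epithelium and 123 ± 42.7 in control total tissue, with a log2 difference of -0.21 ± 0.22 (edgeR adjusted p = 0.43) that turned to 0.04 under RLE scaling. Ifi44 was at 2.94 ± 3.91 and 2.81 ± 2.72 CPM (log2 -0.70 ± 0.72, edgeR adjusted p = 0.424). Ifit3 was at 3.15 ± 5.03 and 6.56 ± 3.66 CPM (log2 -1.53 ± 0.70, edgeR adjusted p = 0.062), and passed with a term per day, litter and inoculum as a block (edgeR adjusted p = 0.0416).

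**Figure D4:**
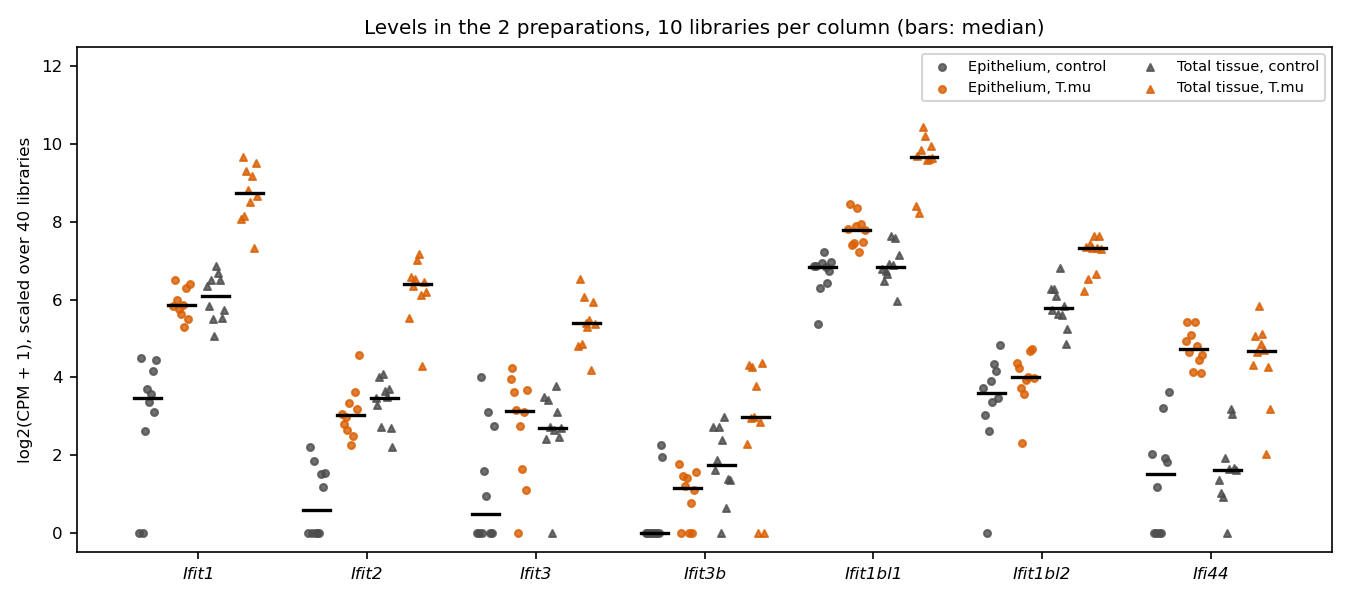
Levels of the 7 genes as log2(CPM + 1) with all 40 libraries scaled together, for control (grey) and T.mu (orange) libraries of epithelium (circles) and total tissue (triangles); each column holds the 10 libraries of 3 days, with a bar at their median. Control levels of Ifit1bl1 overlap between the preparations (means of 105 and 123 CPM), while those of Ifit1 lie apart (10.5 and 70.7 CPM).

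Because the start of Ifit1 and the first start of Ifit1bl2 flank the same short stretch of DNA, their counts were set against each other within each library. The ratio was chosen after the values were seen and is given without a test. Ifit1bl2 has a second RefSeq start, whose window (chr19:34629762-34630061, minus strand) holds no match. Counts per gene do not tell its starts apart. In total tissue at day 3 there were 1.05 to 1.18 Ifit1 counts per Ifit1bl2 count in control libraries and 3.13 to 4.99 in T.mu libraries. At day 14 the ratio was 0.667 to 1.02 in controls and 1.82 to 3.65 with T.mu. At day 48 it was 1.42 to 2.14 in controls and 1.01 to 5.81 with T.mu, where the arms overlap. In epithelium it was 0 to 3 in the 2 control libraries with a ratio and 2.88 to 5.14 with T.mu at day 3, where the arms overlap. It was 0.857 to 1 and 4 to 13.3 at day 14, and 0.571 to 1 and 1.73 to 5.6 at day 48. The median ratio was higher with T.mu than in controls in each of these groups, and whether the 2 genes differ in response was not tested. The strand of counting is not given in the sources used here. No 50-base word in the last 500 bases of either transcript is shared with another gene.

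**Figure D5:**
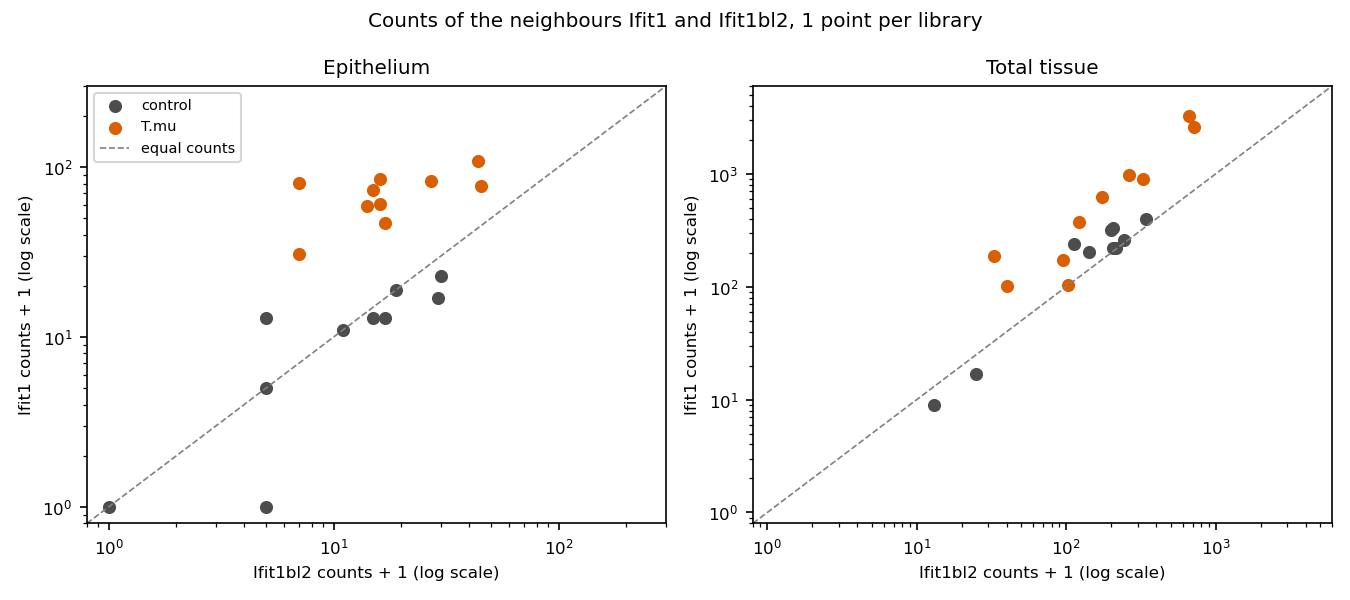
Ifit1 counts + 1 against Ifit1bl2 counts + 1 in each library, on log axes, for epithelium (left) and total tissue (right); grey points are control and orange points T.mu libraries, and the dashed line marks equal counts. All 10 T.mu libraries of epithelium lie above the line, with ratios of 1.73 to 13.3.

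Across the 20 libraries of total tissue, log2 CPM of Ifit3 and Ifit1 had a Pearson r of 0.945, Ifit2 and Ifit1 of 0.916, and Ifit1bl1 and Ifit1 of 0.907. Pairs with Ifit3b were weaker, from 0.366 to 0.537. In the 20 epithelial libraries Ifit2 and Ifit1 had an r of 0.833 and Ifit1bl1 and Ifit1 of 0.819. These values describe libraries that share the same T.mu difference and depth. Outside the 7 genes, those most like Ifit1bl1, the member with the highest mean CPM, were Oasl2 (r = 0.920), Trim30a (0.904), Ifitm3 (0.902), Ly6a (0.874) and Rnf213 (0.861) in epithelium. In total tissue they were B2m (0.942), Ube2l6 (0.923), Ifih1 (0.920), Parp9 (0.909) and Igtp (0.909).

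The other genes of the pathway were read from lists in the order ligand, receptor, transcription factor, brake and target. Of 14 interferon genes, none passed the filter on low counts. Together they held 37 counts in the 10 control and 38 in the 10 T.mu libraries of epithelium, and 13 and 10 in total tissue. Ifnb1 had no count in any of the 40 libraries, and Ifng had 2 and 6 counts in control and T.mu epithelium. Ligand transcripts were thus too few at this depth to compare the arms. Of the receptors and their kinases, edgeR called 0 of 7 tested in epithelium and 0 of 9 in total tissue over all days (0 and 1 at an unadjusted p under 0.05; DESeq2 called 0 in both), with median log2 differences of 0.02 and 0.05.

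Of the factors that carry the signal to DNA, 4 of 7 tested rose in epithelium and 5 of 8 in total tissue in the mean over days, where 2.46% and 1.50% of all genes tested were called higher. Irf7, the factor that amplifies the interferon response, was 3.74-fold higher in epithelium (log2 1.90 ± 0.17, edgeR adjusted p = 4.46e-13) and 1.70-fold in total tissue (log2 0.77 ± 0.10, edgeR adjusted p = 4.89e-08). Irf9, the DNA-binding subunit of ISGF3, was 2.64-fold higher in epithelium (log2 1.40 ± 0.28, edgeR adjusted p = 0.00138) and 3.22-fold in total tissue (log2 1.69 ± 0.16, edgeR adjusted p = 1.2e-11). Stat2, another subunit, rose in both, with log2 differences of 1.59 in epithelium and 1.83 in total tissue. Of 5 genes listed as brakes on the signal, 3 of 3 tested rose in epithelium (Isg15, Trim30a and Usp18) and 3 of 4 in total tissue. Whether each of them acts as a brake in these mice was not tested. Isg15, a ubiquitin-like modifier, had a log2 difference of 5.35 ± 0.61 in epithelium and 3.30 ± 0.37 in total tissue, and Usp18, the protease that removes it, 2.10 and 3.14. RNA sensors rose in 2 of 7 and 5 of 7 tested, among them Zbp1 (log2 1.33 and 2.37) and Dhx58 (2.02 and 2.34). Of 55 other interferon-induced genes, 26 of 45 tested rose in epithelium and 38 of 50 in total tissue, with medians of 1.40 and 1.34. Where Ifit1bl1 had the lower response in epithelium, these lists had 6 genes called with a higher one in the same contrast (background 0.608%) and none with a lower one. They were Irf7 (log2 response in epithelium minus total tissue 1.18 ± 0.20, edgeR adjusted p = 0.000271), Ifi27l2a, Oas3, Ifitm3, Lgals3bp and Ube2l6. That is 1 of 7 factors and 5 of 49 other interferon-induced genes tested. Their list medians were 0.07 and -0.04, against 0.09 over all genes. Brakes and RNA sensors had medians of -0.73 and -0.22, and receptors and kinases 0.02. DESeq2 called 1 factor, 1 brake, 1 RNA sensor and 6 other interferon-induced genes. RLE scaling turned the split of all calls from 72 higher and 17 lower to 38 and 34. The 6 genes are not given under it. Within these lists no gene was called lower by edgeR in the mean over days in either preparation. Ifi44l, the paralogue of Ifi44, was not tested, with 6 and 3 counts in control and T.mu epithelium and 0 and 2 in total tissue.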

How the data were processed

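Whole-number counts per gene, as deposited by the authors, were used without normalization. They come from a 3′ digital gene expression assay, per the labels' protocols, for which the submitters' processing notes name STAR and Subread without versions. The genome build, strand setting and any molecular identifiers are not given in the sources used here. Symbols came from GENCODE M21 (45143 of 45792 IDs matched, 98.6%). The non-mouse entry (0.389% of counts) entered neither library sizes nor tests.

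Counts were tested with edgeR 4.0.16 (R 4.3.3): filterByExpr (minimum count 10, minimum total 15), TMM scaling, robust quasi-likelihood fits, Benjamini-Hochberg adjustment over all genes tested and a threshold of 0.05. One fit per preparation (20 libraries) gave the T.mu comparisons and 1 fit of 40 libraries those between preparations, with 10119, 11696 and 11834 genes tested. CPM were scaled by TMM, correlations used log2 CPM with a prior count of 2, and DESeq2 1.42.0 was an alternative. The fits were tested on simulated data. Counting intervals cover counting error only and treat each count as separate, so with mostly even counts they are too narrow.

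All 7 genes were named, plus up to 4 genes per pathway list with the smallest adjusted p and the 5 genes per preparation most like the highest member. Members and lists were chosen with earlier results of these data known. The replicate number is the litter, per the labels, so same-numbered libraries are paired; deviations of same-litter libraries correlated from -0.143 to 0.401 over 20 pairs. One gene of the pathway lists is not reported here by name.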

Additional observations from a re-analysis of the deposited data

Results flagged for a closer look

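In total tissue control libraries at day 48, the highest Ifit3b level, 7.14 CPM, stood far from the other 3 libraries, which were at 0.585 to 1.70 CPM. In total tissue T.mu libraries at day 48, the highest Ifit1bl1 level, 1032 CPM, stood apart from the others at 806 to 837 CPM. Both met Dixon's criterion for an outlying sample, among 28 groups examined. Chance alone gives such a result in about 1 in 20 groups.

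The change of Ifit1bl1 differed between the preparations, with a mean log2 response in epithelium minus total tissue of -1.57 (edgeR adjusted p = 0.00857). Its log2 response was 1.08 ± 0.16 in epithelium and 2.67 ± 0.24 in total tissue.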

How the results depend on the processing

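Of 79 tests of single members, 35 passed. Of these, 20 kept their call under every alternative and leave-one-out refit that gave them an adjusted p (DESeq2 and the halved counts did not for each member), 28 kept it in every leave-one-out refit, and none changed direction. The number of members called at day 3 in epithelium went from 3 to 1 with counts halved, to 0 without libraries under 400000 counts, and from 1 to 3 on leaving out 1 library (1 without any control library). At day 48 in epithelium it went from 1 to 2 with counts halved or DESeq2, and from 1 to 2 on leaving out 1 library (2 without control replicate 4). Over all days in epithelium DESeq2 called 2 of the 2 members to which it gave an adjusted p, against 4 by edgeR. Without libraries under 400000 counts total tissue calls went from 4 to 1 at day 3, from 4 to 1 at day 14 and from 5 to 2 at day 48, and the 1 call in the response of epithelium minus total tissue went to 0. The test of equal daily differences in total tissue went from 0 to 1 with no filter. For these the cause was not tested. The refit without libraries under 400000 counts left 1 control library in epithelium at day 3 and 1 in total tissue at day 14. Its lost calls cannot be told from lost replication.

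Leaving out 1 library gave 2 to 3 calls in epithelium at day 14 and 3 to 4 over all days, 3 to 4, 3 to 5 and 4 to 7 in total tissue at days 3, 14 and 48 and 6 to 7 over all days, 1 in the difference of responses and 4 to 5 in controls. The Ifit3b permutation test gave 0.341 to 0.742 CPM.

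Directions turned for members that had not passed, mostly on leaving out 1 library. In epithelium Ifit1bl2 at day 14 ranged from -0.41 to 0.38 (0.38 without T.mu replicate 1, 0.35 if control replicate 2 was left out), Ifit1bl2 at day 48 from -0.11 to 0.40 (-0.11, -0.0218 and -0.0224 without control replicate 3, T.mu replicate 3 and T.mu replicate 2) and Ifit3 at day 48 from -0.0300 (without T.mu replicate 4) to 1.53. In the difference of responses, Ifit1 ranged from -0.54 to 2.17, with 0.0221 as its other positive value, Ifit2 from -0.60 to 1.20, with 0.78 as its other positive value, and Ifit3 from -1.56 to 0.58, with 0.70 without libraries under 400000 counts. In controls, Ifit1bl1 turned to 0.0408 with RLE scaling and 0.0377 with DESeq2.

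The replicate block within a preparation was the litter number alone, which recurs on each day. Whether a number means the same litter on each day was not tested. With litter as a replicate block, Ifit1bl1 at day 14 in epithelium passed (adjusted p = 0.0397, edgeR). Ifit1bl1 at day 3 in total tissue did not (adjusted p = 0.0566, edgeR). With a term per day, litter and inoculum Ifit3 differed between control preparations (adjusted p = 0.0416, edgeR). The block changed no other call. Depth limits the values of Ifit3b, and of Ifit2, Ifit3 and Ifi44 in control epithelium, which rest on few counts.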
